A study of Mus musculus with 10 samples.

Results

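The kynurenine pathway and the enzymes that make NAD from it were examined in kidney cortex of diabetic db/db mice and of db/m mice. The genes were chosen by function, with earlier results of these data known, as 10 listed enzymes of tryptophan breakdown and NAD synthesis. By Entrez ID 9 of them were matched to a row of the expression table among 16475 genes. These were Tdo2, Afmid, Kmo, Kynu, Aadat, Haao, Qprt, Nampt and Nadsyn1; Acmsd, which diverts the pathway away from NAD, was not analysed here. Each of 10 mice gave 1 Affymetrix mouse genome array, and values are log2 expression levels. The 5 db/db mice carry a mutation of the leptin receptor on both copies in every tissue, and the 5 db/m mice are their littermates without diabetes, which carry a single mutant copy, as the name db/m stands for. All were 24 weeks old and on the BKS background, and the cortex had been deprived of glomeruli before RNA extraction. A change is the db/db mean less the db/m mean in log2 units, with its standard error, over 5 mice a group or 4 db/db mice without db/db 1. Each adjusted p comes from limma with Benjamini-Hochberg adjustment over all genes, and 0.05 is the threshold. The labels give separate mice, so p-values measure the spread between animals. Means are given with their SD.

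Tryptophan breakdown starts with the opening of its indole ring, by Tdo2, Ido1 or Ido2, and arylformamidase (Afmid) then frees kynurenine. Kynurenine is used by 3 kinds of enzyme: Kmo hydroxylates it, Kynu (kynureninase) removes its alanine side chain, and the aminotransferases, Aadat among them, turn it into kynurenic acid. The hydroxylated arm runs through Kynu again and then Haao to a branch point, from which either Acmsd leads to oxidation or quinolinate forms. Qprt turns quinolinate into the NAD precursor nicotinic acid mononucleotide. Nampt recycles nicotinamide into NAD, and Nadsyn1 closes the routes that start from tryptophan or nicotinic acid. In kidney these enzymes are known mainly from the proximal tubule.

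One array stood apart. The db/db 1 array correlated with the other 9 at a Pearson r of 0.938 to 0.962 across genes, while the others reached 0.985 or more with each other. Proximal tubule markers (8 genes, among them Lrp2, Slc34a1 and Slc5a2) were bright in all arrays, as the tissue label implies, with a mean of 12.8 to 13.0 in db/m and 13.1 in each of db/db 2 to 5, but 12.3 in db/db 1. The 10 macrophage and monocyte markers averaged 8.52 to 8.75 in db/m, 11.7 in db/db 1, 9.55 in db/db 2 and 7.71 to 8.21 in db/db 3 to 5, and 4 neutrophil markers averaged 6.22 to 7.20 in db/m, 11.9 in db/db 1, 8.84 in db/db 2, 9.002 in db/db 3, and 6.36 to 6.53 in db/db 4 and 5. None of the 8 tubule, 10 macrophage or 4 neutrophil markers passed the test with all arrays. Without db/db 1 the tubule list held 1 rise and the macrophage list 1 fall, where 6.84% of all genes rose and 5.93% fell. Podocyte markers were measured for 5 genes, as traces of glomeruli, and averaged 8.65 to 8.995 in db/m and 9.05 to 9.44 in db/db. Of these, 3 of 5 rose with all arrays and 5 of 5 without db/db 1, against 2.96% and 6.84% of all genes. Tubular injury markers (5 genes) averaged 6.26 to 7.63 in db/m, 12.5 in db/db 1, 8.58 in db/db 2 and 6.77 to 7.32 in db/db 3 to 5. In bulk tissue fewer cells of a type and less RNA per cell cannot be told apart. Each comparison is therefore given with all 10 arrays and without db/db 1, and the part of these markers in the results was not tested.

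Along the pathway Kynu rose several-fold, and none of the other 8 measured genes rose. With all arrays 1 of the 9 measured genes passed the threshold, Kynu, against 6.51% of all genes (2.96% higher and 3.54% lower). Without db/db 1 Kynu rose and Afmid and Haao fell, so 3 of 9 passed, against 12.8% of all genes (6.84% higher and 5.93% lower). The groups did not overlap for 3 of the 9 with all arrays, Afmid, Aadat and Haao, all lower in db/db, against 10.2% of all genes, and for these and Kynu without db/db 1, against 15.4%. The median change of the 9 was -0.17 with all arrays and -0.01 without db/db 1, and over all genes it was -0.03 and -0.01.

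**Figure D1:**
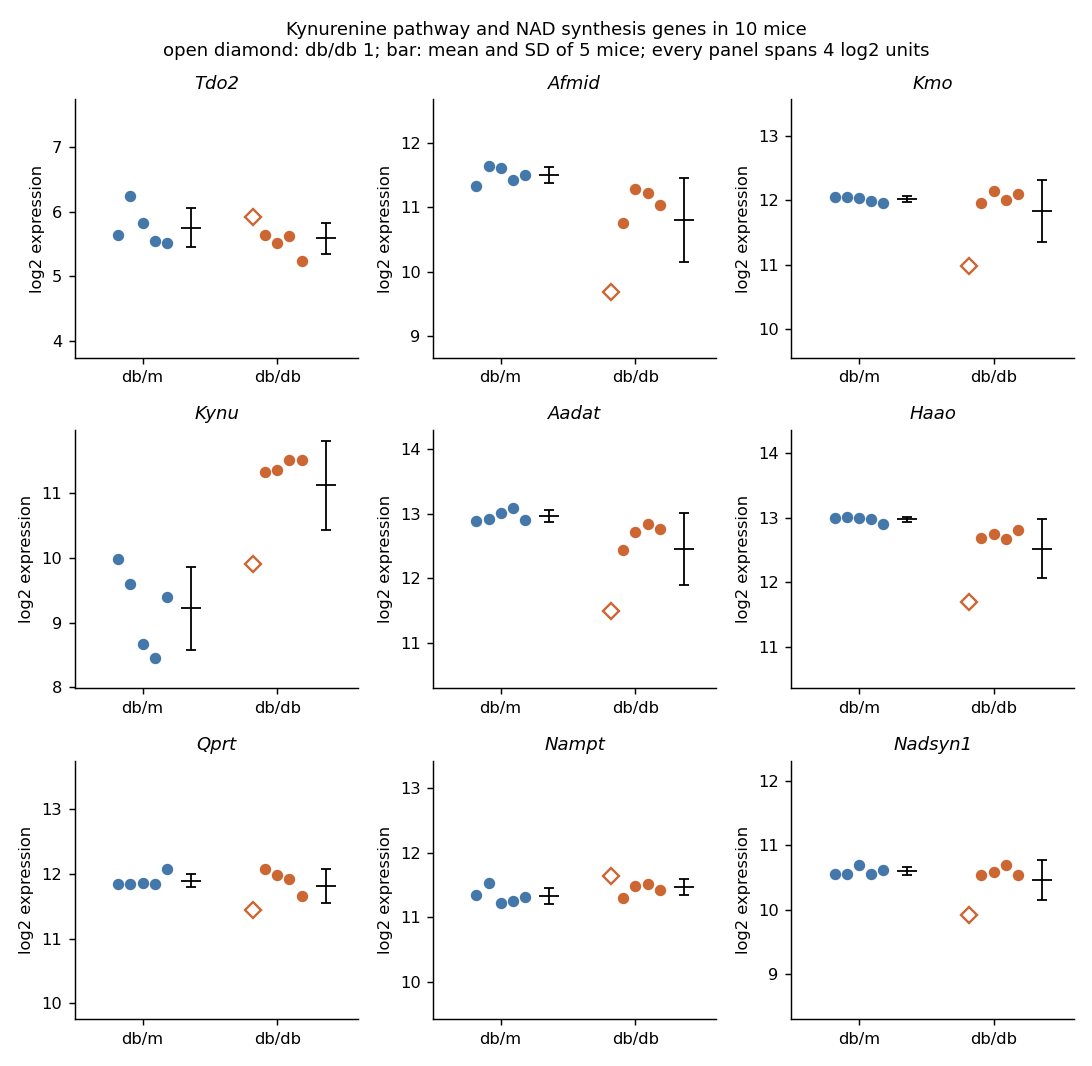
Log2 expression of the 9 measured genes in each mouse, with db/m in blue and db/db in orange, db/db 1 as an open diamond, and the mean and SD of 5 mice as a bar beside the points. Kynu lies between 11.3 and 11.5 in db/db 2 to 5 and between 8.45 and 9.99 in db/m, and db/db 1 is the lowest point for Afmid, Kmo, Aadat, Haao, Qprt and Nadsyn1.

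Kynu, which encodes kynureninase, was the member with the largest change. Its level was 9.99, 9.60, 8.67, 8.45 and 9.40 in db/m 1 to 5, and 9.91, 11.33, 11.36, 11.51 and 11.52 in db/db 1 to 5. The db/db 2 to 5 mice lay close together and above every db/m mouse, while db/db 1 fell inside the db/m range. The mean went from 9.22 ± 0.65 to 11.13 ± 0.69, a 3.75-fold rise (1.91 ± 0.38, adjusted p = 0.0172), with 5 of 5 db/db mice above the db/m mean. Without db/db 1 the db/db mean was 11.43 ± 0.10 and the rise 4.63-fold (2.21 ± 0.28, adjusted p = 0.00143). In the order of all 16475 changes it stood 50th from the top with all arrays and 13th without db/db 1. The call with all arrays was lost without db/m 3 (adjusted p = 0.0519), and without db/db 1 it held in each of 9 fits that left out a further array (adjusted p up to 0.00612).

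The db/m mice differed widely in Kynu. Its SD among them was above that of 99.2% of all genes, while Kmo and Haao, with an SD of 0.04 each, were above only 4.31% and 3.23%. Macrophages also express Kynu. In db/db 2 to 5 Kynu spanned 11.33 to 11.52 while the macrophage and monocyte mean spanned 7.71 to 9.55. In db/db 1, where that mean was 11.7, Kynu was lowest of the db/db group. The part of macrophages in the Kynu values was not tested.

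The 3 named genes whose profile over the 10 mice lay nearest to that of Kynu, by the mean absolute difference of values taken from the db/m mean, were Mbl2, Bbox1 and Bhmt. Mbl2 encodes a mannose-binding lectin, Bbox1 the last enzyme of carnitine synthesis and Bhmt a homocysteine methyltransferase. Their mean distances to Kynu were 0.37, 0.41 and 0.41 log2 units. Mbl2 rose by 1.63 (adjusted p = 0.0399), and without db/db 1 by 1.96 (adjusted p = 0.00317). Bbox1 changed by 1.76 (adjusted p = 0.0817) with all arrays and rose by 2.31 (adjusted p = 0.000453) without db/db 1. For Bhmt these values were 1.56 (adjusted p = 0.241) and 2.29 (adjusted p = 0.00191), and in db/db 1 it was 1.38 log2 units below the db/m mean. They were picked for likeness, so their changes add no separate evidence.

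At the entry of the pathway Afmid, whose product hydrolyses formylkynurenine, was lower in every db/db mouse. Its level was 11.32, 11.65, 11.60, 11.43 and 11.51 in db/m 1 to 5, and 9.69, 10.76, 11.28, 11.22 and 11.04 in db/db 1 to 5. The groups did not overlap, although db/db 3 at 11.28 lay just under db/m 1 at 11.32. With all arrays the change was -0.70 ± 0.27 (adjusted p = 0.159), and without db/db 1 Afmid fell by 0.43 ± 0.11 (adjusted p = 0.0378), a 1.34-fold drop. That call was kept in 3 of the 9 fits that left out a further array, and was lost in the other 6, where the highest adjusted p was 0.0904, with db/m 3 out.

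Tdo2, the dioxygenase best known from liver, was dim, with a mean close to the level that marks the lowest 25% of genes (5.71). Its level was 5.64, 6.24, 5.82, 5.54 and 5.51 in db/m 1 to 5 and 5.91, 5.64, 5.51, 5.63 and 5.23 in db/db 1 to 5. The groups overlapped, and the change was -0.17 ± 0.16 (adjusted p = 0.597), or -0.25 ± 0.15 (adjusted p = 0.352) without db/db 1, so at this level no change was detectable.

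Ido2, another ring-opening enzyme, was at 9.19, 9.21, 9.02, 9.64 and 9.16 in db/m 1 to 5 and at 5.81, 6.89, 7.93, 7.56 and 7.79 in db/db 1 to 5. All db/db mice were below all db/m mice, by more than 1 log2 unit. Ido2 fell 4.13-fold (-2.05 ± 0.36, adjusted p = 0.0105) and without db/db 1 by 1.70 ± 0.20 (adjusted p = 0.00102), and this call was kept in all 10 fits that left out 1 array. Ido1 was named after its values were seen. It was dim, at 4.63 to 5.00 in db/m and 4.50 to 5.48 in db/db 2 to 5. In db/db 1 it was at 8.48, and that mouse also had the highest macrophage, neutrophil and tubular injury marker means. The source of the Ido1 signal in db/db 1 was not tested. The change of Ido1 was 0.84 ± 0.63 (adjusted p = 0.489) with all arrays and 0.15 ± 0.19 (adjusted p = 0.675) without db/db 1.

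**Figure D2:**
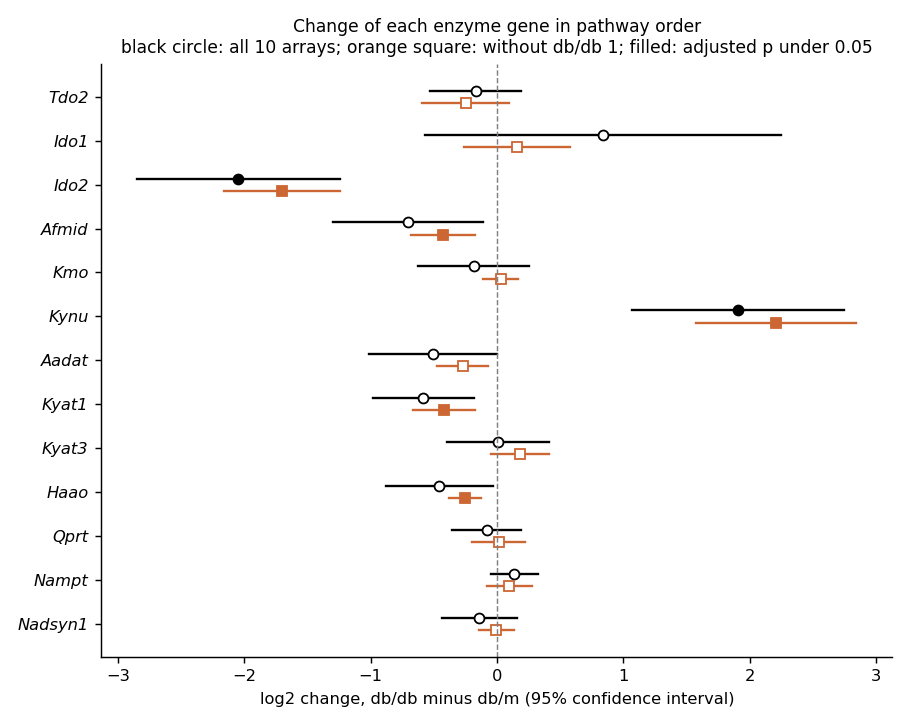
Log2 change of each enzyme gene, db/db minus db/m, in pathway order from the top, with 95% confidence intervals from limma; black circles use all 10 arrays, orange squares leave out db/db 1, and filled symbols passed an adjusted p of 0.05. Kynu lies at 1.91 and 2.21 and Ido2 at -2.05 and -1.70, while the intervals of Qprt, Nampt and Nadsyn1 include 0 in both fits.

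Of the other enzymes that use kynurenine, Kmo, the mitochondrial hydroxylase, was level in 9 of the 10 mice. It was at 12.05, 12.06, 12.04, 11.98 and 11.96 in db/m 1 to 5 and at 10.98, 11.95, 12.14, 12.00 and 12.09 in db/db 1 to 5. Only db/db 1 lay outside the narrow band of the rest, about 1 log2 unit lower. The change was -0.18 ± 0.20 (adjusted p = 0.639), and without db/db 1 it was 0.03 ± 0.06 (adjusted p = 0.826) with a 95% confidence interval of -0.11 to 0.17, which lies far from the change of Kynu.

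Aadat, which encodes kynurenine aminotransferase II and also serves lysine breakdown, was at 12.88, 12.92, 13.01, 13.09 and 12.90 in db/m 1 to 5 and at 11.50, 12.44, 12.72, 12.85 and 12.76 in db/db 1 to 5. Every db/db mouse was below every db/m mouse, with db/db 4 closest to the db/m range. The change was -0.51 ± 0.23 (adjusted p = 0.232), or -0.27 ± 0.09 (adjusted p = 0.084) without db/db 1, and neither passed. A further aminotransferase gene, Kyat1, had a change of -0.58 ± 0.18 (adjusted p = 0.0866) and fell by 0.42 ± 0.11 (adjusted p = 0.0361) without db/db 1, a call kept in 2 of 9 fits with a further array left out (adjusted p up to 0.0952 without db/db 3). Kyat3, named although it passed in neither fit, was at 0.01 ± 0.18 (adjusted p = 0.984) and at 0.18 ± 0.10 (adjusted p = 0.303). Of the 4 measured genes in the list of other kynurenine enzymes, Ido2 passed with all arrays and Ido2 and Kyat1 without db/db 1, all lower. Over all genes 3.54% and 5.93% fell. The list's median changes were -0.29 and -0.13.

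The enzyme genes at the kynurenine branch were also set against one another within each mouse. The log2 difference of Kynu and Kmo, taken from its db/m mean, ran from -0.74 to 0.73 in db/m (SD 0.63) and was 1.72, 2.18, 2.02, 2.31 and 2.22 in db/db 1 to 5. All 5 db/db mice were above all 5 db/m mice, db/db 1 included, although Kynu itself was inside the db/m range in db/db 1, where Kynu was 0.68 above its db/m mean and Kmo was at -1.04 from its own. For Kynu and Aadat the values were 2.15, 2.63, 2.39, 2.41 and 2.49, against -0.91 to 0.84 in db/m. For Kmo and Aadat they were 0.42, 0.46, 0.36, 0.10 and 0.27, against -0.17 to 0.11, so 4 of 5 db/db mice were above the db/m mice and db/db 4 was not. No test was made of these differences, since Kynu was known to rise when they were chosen.

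**Figure D3:**
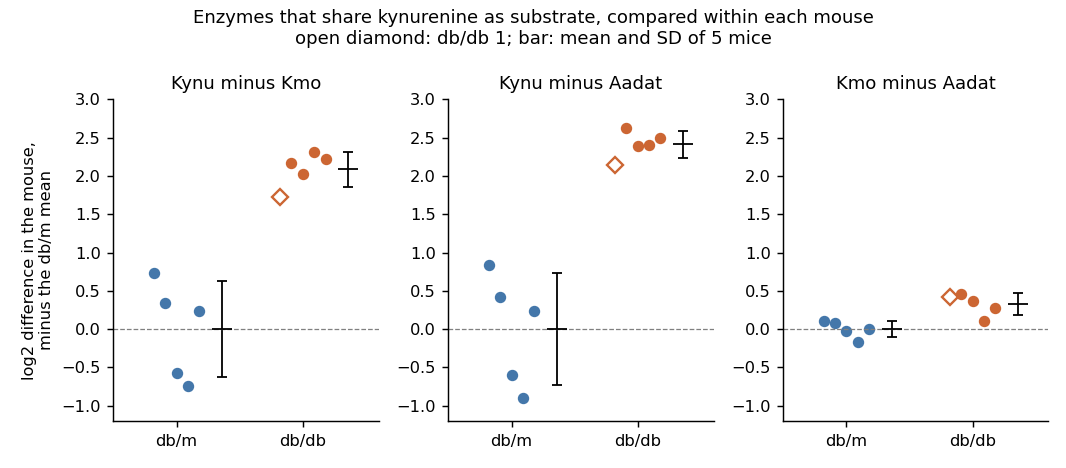
Log2 difference between genes of enzymes that act on kynurenine, within each mouse and relative to the db/m mean (dashed line), with db/db 1 as an open diamond and the mean and SD of 5 mice as a bar. The mean in db/db was 2.09 for Kynu minus Kmo, 2.41 for Kynu minus Aadat and 0.32 for Kmo minus Aadat.

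In the NAD arm Haao, the dioxygenase that opens hydroxyanthranilate, was at 13.00, 13.02, 12.99, 12.99 and 12.91 in db/m 1 to 5 and at 11.70, 12.69, 12.74, 12.67 and 12.82 in db/db 1 to 5. The db/m mice were nearly equal, and every db/db mouse lay below them. The change was -0.46 ± 0.19 (adjusted p = 0.200), and without db/db 1 Haao fell by 0.25 ± 0.06 (adjusted p = 0.019), a 1.19-fold drop. In db/db 2 to 5, where Haao and Afmid were lower than in db/m, the mean of the proximal tubule markers was slightly higher than in db/m. The changes of these 8 markers were uneven, from -0.10 for Slc22a6 to 0.83 for Slc22a8, with a median of 0.11. Slc22a8 was the only 1 that passed, while for 4 of the 8 the groups did not overlap, all higher, against 15.4% of all genes. Of 5 measured markers of other tubule segments 3 rose without db/db 1, against 6.84% of all genes, and 0 with all arrays. The part of tubule content in the falls was not tested. The Haao call was kept in 7 of 9 fits that left out a further array and lost when that array was db/db 4 (adjusted p = 0.0602) or db/m 3 (adjusted p = 0.0525).

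Afmid and Haao were the members that fell without db/db 1, and the 250 bases before their RefSeq start sites are shown for that reason, on build GRCm38.p6 and 5′ to 3′ on the gene's strand. Of the 10 listed genes 9 were matched in the RefSeq promoter table, Kynu not among them. Capitals mark matches, on either strand, to the aryl hydrocarbon receptor core GCGTG, the HNF1 half-site GTTAAT, the nuclear receptor half-site AGGTCA and the TATA box TATAAA. Haao lies at chr17:83846791-83847040 on the minus strand and Afmid at chr11:117825669-117825918 on the plus strand.
Haao: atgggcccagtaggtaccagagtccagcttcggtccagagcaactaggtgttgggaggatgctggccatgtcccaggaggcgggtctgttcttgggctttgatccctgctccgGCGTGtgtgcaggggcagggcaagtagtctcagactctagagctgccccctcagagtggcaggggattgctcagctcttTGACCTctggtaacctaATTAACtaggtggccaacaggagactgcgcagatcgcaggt
Afmid: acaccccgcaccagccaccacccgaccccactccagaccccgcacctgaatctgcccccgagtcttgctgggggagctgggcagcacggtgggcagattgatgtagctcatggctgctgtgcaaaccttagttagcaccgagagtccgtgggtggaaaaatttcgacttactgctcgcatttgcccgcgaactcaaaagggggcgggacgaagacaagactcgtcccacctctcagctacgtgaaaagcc
The Haao window held 1 match each to the receptor core, the HNF1 half-site and the nuclear receptor half-site, none of which overlap, and the Afmid window held 0 matches to the 4 motifs. Among all 32851 RefSeq windows of this length 28.2% hold the receptor core, 6.43% the HNF1 half-site, 14.02% the nuclear receptor half-site and 12.4% the TATA box. The Afmid window had 15 CpG pairs and the Haao window 6, where the median over all windows was 6. These are matches of letters and say nothing of which factors bind.

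Qprt, which makes the NAD precursor nicotinic acid mononucleotide from quinolinate, overlapped between the groups. It was at 11.84, 11.84, 11.87, 11.85 and 12.07 in db/m 1 to 5 and at 11.44, 12.07, 11.98, 11.92 and 11.66 in db/db 1 to 5. Its change was -0.08 ± 0.12 (adjusted p = 0.747), and 0.01 ± 0.09 (adjusted p = 0.956) without db/db 1, with a 95% confidence interval of -0.20 to 0.22. A change of that size in either direction is therefore not excluded by these arrays.

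Nampt, the rate-limiting enzyme of nicotinamide salvage, was at 11.34, 11.52, 11.21, 11.26 and 11.30 in db/m 1 to 5 and at 11.63, 11.29, 11.48, 11.51 and 11.42 in db/db 1 to 5. It was highest in db/db 1, and otherwise the groups overlapped. The change was 0.14 ± 0.08 (adjusted p = 0.386), or 0.10 ± 0.08 (adjusted p = 0.501) without db/db 1, with a 95% confidence interval of -0.08 to 0.27. Nadsyn1, the glutamine-dependent NAD synthetase, was at 10.55, 10.56, 10.69, 10.55 and 10.62 in db/m 1 to 5 and at 9.92, 10.54, 10.59, 10.70 and 10.54 in db/db 1 to 5. Apart from db/db 1, which was lowest, its groups lay on top of each other. Its change was -0.14 ± 0.13 (adjusted p = 0.595), or -0.01 ± 0.06 (adjusted p = 0.974) without db/db 1, with a 95% confidence interval of -0.14 to 0.13.

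The db/db 1 mouse was the lowest of all 10 for 6 of the 9 genes, as it was for 41.6% of all genes. Its distance from the db/m mean was -1.81 for Afmid, -1.46 for Aadat, -1.28 for Haao, -1.04 for Kmo, -0.67 for Nadsyn1 and -0.46 for Qprt. In the other db/db mice Afmid was -0.74 to -0.22 from that mean, Aadat -0.53 to -0.12 and Haao -0.31 to -0.16, so for these genes db/db 1 was farther out in the same direction, while Kmo (-0.07 to 0.12) and Nadsyn1 (-0.06 to 0.10) were level in the others. For Nampt db/db 1 was the highest mouse, 0.31 over the mean of the db/m group.

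Related genes were read from lists written with earlier results of these data in view. Among 7 genes that carry tryptophan and other neutral amino acids into cells, none fell in either fit. With all arrays 1 of the 7 rose, against 2.96% of all genes. Of the 7, 3 rose without db/db 1, against 6.84% of all genes. The list's median changes were 0.07 and 0.28. Slc7a5, the light chain of the large neutral amino acid transporter, was at 6.74 to 7.31 in db/m and 7.64 to 8.47 in db/db, with no overlap, and rose by 1.04 ± 0.18 (adjusted p = 0.00916; 0.93 ± 0.16 and adjusted p = 0.00536 without db/db 1). Its heavy chain Slc3a2 and the related carrier Slc7a8 rose without db/db 1, by 0.30 ± 0.06 (adjusted p = 0.00757) and 0.68 ± 0.09 (adjusted p = 0.00187). With all arrays their changes were 0.23 ± 0.09 (adjusted p = 0.155) and 0.30 ± 0.35 (adjusted p = 0.672), and in db/db 1 Slc7a8 was at 10.3 against 11.4 to 11.7 in db/m.

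On the side route from tryptophan to serotonin and its breakdown, 2 of 5 genes rose with all arrays and 4 without db/db 1. Over all genes 2.96% and 6.84% rose. The list's median changes were 0.24 and 0.37. The monoamine oxidase gene Maob was at 7.16 to 7.82 in db/m and 8.09 to 9.54 in db/db, and rose by 1.39 ± 0.26 (adjusted p = 0.0128; 1.62 ± 0.17 and adjusted p = 0.000466 without db/db 1). Maoa rose by 0.55 ± 0.11 (adjusted p = 0.0191; 0.61 ± 0.10 and adjusted p = 0.00443). The decarboxylase gene Ddc changed by 0.16 ± 0.20 (adjusted p = 0.697) with all arrays and rose by 0.37 ± 0.09 (adjusted p = 0.0225) without db/db 1. Tph2, the neuronal tryptophan hydroxylase gene, was dim, at 3.63 ± 0.13 in db/m, and changed by 0.24 ± 0.14 (adjusted p = 0.358), or rose by 0.35 ± 0.10 (adjusted p = 0.0461) without db/db 1. Tph1, the other tryptophan hydroxylase gene, is named although it passed in neither fit. It was dim too, at 5.06 ± 0.08 in db/m. Its change was 0.003 ± 0.11 (adjusted p = 0.990), or -0.02 ± 0.12 (adjusted p = 0.935) without db/db 1. With all arrays Maoa kept its call in 8 of 10 fits that left out an array (adjusted p = 0.055 without db/m 3). The Ddc call was kept in 5 of 9 such fits and the Tph2 call in 1 of 9. Under 8 other alternatives with all arrays Maoa kept its call in 6 (adjusted p up to 0.0876) and Maob in 7 (adjusted p up to 0.0643).

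Of 10 other genes of NAD and NADP synthesis 1 fell in each fit, against 3.54% and 5.93% of all genes, and none rose. Median changes were -0.07 and 0.04. At an unadjusted p under 0.05 there were 4 with all arrays and 5 without db/db 1, a share that was not counted over all genes. The groups did not overlap for 2 and 3 of the 10, against 10.2% and 15.4% of all genes. Of the list genes without overlap 2 were lower in both fits, and 1 was higher without db/db 1. The gene that fell was Nadk, the cytosolic kinase that turns NAD into NADP, which was at 12.10 to 12.17 in db/m and 11.78 to 11.99 in db/db without overlap. It fell by 0.24 ± 0.06 (adjusted p = 0.0402; 0.27 ± 0.05 and adjusted p = 0.0104 without db/db 1). With all arrays its call was kept in 1 of the 10 fits that left out an array (the highest adjusted p was 0.103, with db/m 3 out), and in 9 of 9 of those that also lacked db/db 1. Under 6 other alternatives without db/db 1 it was kept in 5 (adjusted p up to 0.0992).

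Among 19 genes that consume NAD or clear nicotinamide, 0 passed with all arrays by limma. At an unadjusted p under 0.05 there were 4, a share that was not counted over all genes. The list held 1 rise and 1 fall without db/db 1. Over all genes 6.51% passed with all arrays and 12.8% without db/db 1. Median changes of the list were 0.15 and 0.01. Without db/db 1 the mitochondrial sirtuin gene Sirt5 rose by 0.31 ± 0.06 (adjusted p = 0.0112) and Sirt4, another one, fell by 0.44 ± 0.12 (adjusted p = 0.0453), and with all arrays their changes were 0.16 ± 0.14 (adjusted p = 0.556) and -0.57 ± 0.17 (adjusted p = 0.0701). With a further array left out Sirt5 kept its call in 9 of 9 fits and Sirt4 in 2 of 9. Under 6 other alternatives without db/db 1 each kept its call in 5 (adjusted p up to 0.101 for Sirt5 and 0.0993 for Sirt4). Bst1, an NAD glycohydrolase gene, and Nnmt, whose product methylates nicotinamide, were named after their values were seen. Bst1 stood at 11.8 in db/db 1 against 6.50 to 7.14 in the other 9 mice, and Nnmt at 11.1 against 6.30 to 7.45. That mouse also had the highest macrophage, neutrophil and tubular injury marker means, and the source of these 2 signals was not tested. Without db/db 1 Bst1 and Nnmt changed by 0.23 ± 0.12 (adjusted p = 0.267) and -0.24 ± 0.19 (adjusted p = 0.479).

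Kynurenine and kynurenic acid are known ligands of the aryl hydrocarbon receptor. Of 8 genes for this receptor, its partner and targets, 0 passed with all arrays by limma, against 6.51% of all genes. At an unadjusted p under 0.05 there was 1, a share that was not counted over all genes. Without db/db 1 the list held 1 fall, against 5.93% of all genes. This was Tiparp, a target gene, with a change of -0.28 ± 0.07 (adjusted p = 0.0561) and a fall of 0.23 ± 0.06 (adjusted p = 0.0405). It kept the call in 1 of 9 fits with a further array left out (adjusted p up to 0.101 without db/db 3). The classical target Cyp1a1 was dim, at 5.84 ± 0.29 in db/m, with changes of -0.42 ± 0.27 (adjusted p = 0.414) and -0.18 ± 0.18 (adjusted p = 0.603); Cyp1a1 was named after its values were seen. The 5 genes of the oxidative branch below Acmsd and of lysine breakdown held 0 calls in both limma fits. Over all genes 6.51% passed with all arrays and 12.8% without db/db 1. At an unadjusted p under 0.05 the list held 0, where the share over all genes was not counted. Aldh8a1 (-0.25 ± 0.12, adjusted p = 0.254) was nearest the threshold with all arrays and Dhtkd1 (0.20 ± 0.09, adjusted p = 0.19) without db/db 1.

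**Figure D4:**
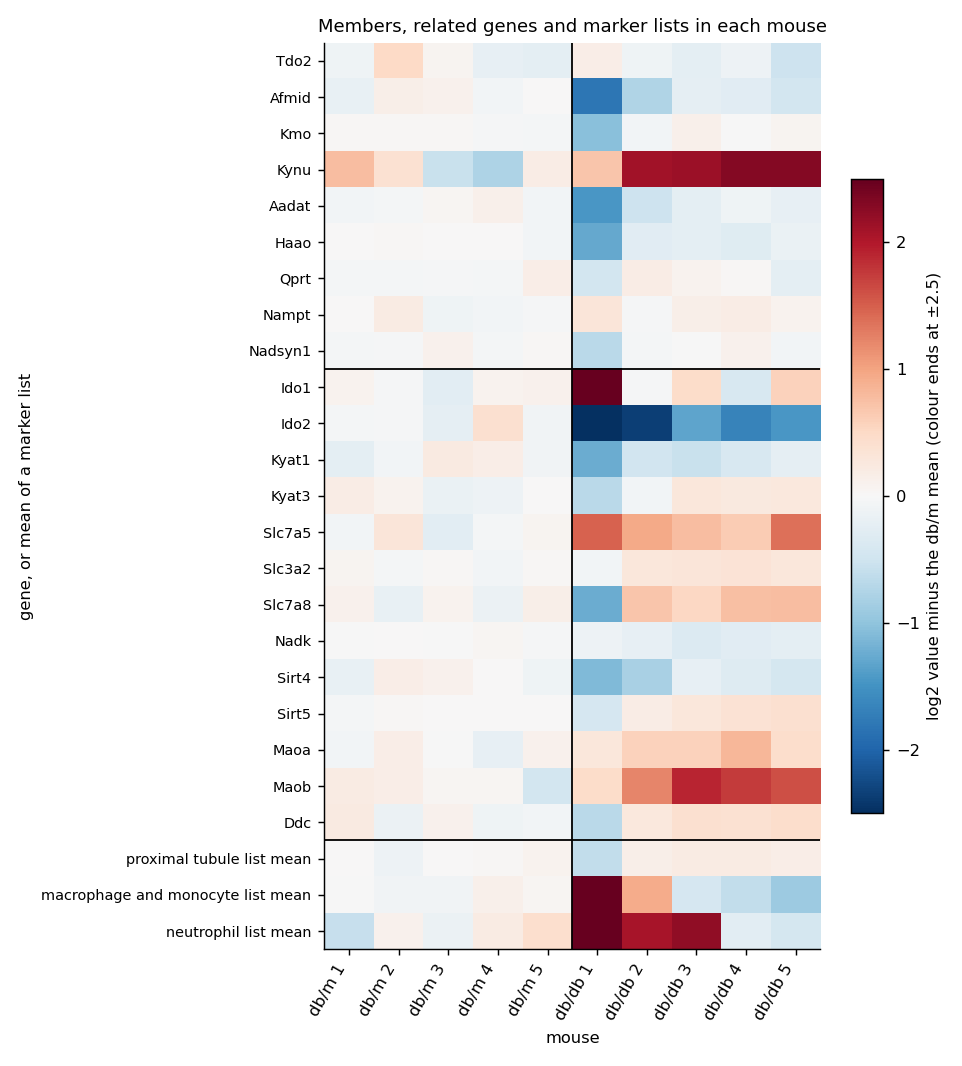
Log2 value minus the db/m mean for the 9 members (top), related genes (middle) and the means of 3 marker lists (bottom) in each mouse, with red above and blue below the db/m mean and the colour ending at 2.5 log2 units either way. Kynu and Maob are red in db/db 2 to 5 and Ido2 blue in all 5 db/db mice, while Ido1 is at the end of the scale only in db/db 1 among these mice, together with the macrophage and neutrophil lists.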

How the data were processed

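Per the submitters' processing notes, the authors used RMA on Affymetrix Mouse Genome arrays, and the deposited values are log2 levels with 1 row per Entrez gene. The version and the way probes were grouped are not given in the sources used here. This method shares its normalisation across arrays, so an array that stands apart can touch the others' values. The deposited values ran from 2.50 to 14.5, with array medians of 8.46 to 8.66, and were used as they were. Of 16475 gene rows 15780 had a symbol in the supplied annotation, and 64 control rows were left out. The number of arrays limits the precision, and arrays give no counts.

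Groups were compared over all genes with limma 3.58.1 in R 4.3.3 (lmFit, eBayes without trend, two-sided, Benjamini-Hochberg), with all 10 arrays and without db/db 1, and the code was tested on simulated data. Figures used Python 3.11.15 and matplotlib 3.10.9. The members and lists were chosen with earlier results of these data known. Named were all members, then up to 4 genes per list that passed in either fit, or those nearest the threshold, then the 3 nearest profiles of each member called in both fits, and exceptions are stated. The design had also listed the difference of Qprt and Acmsd, which was not analysed here. Alternatives were the mouse number as a block, dim genes left out, requantiling, median centring, other eBayes settings, array weights, a stricter threshold and each array left out. Further arrays left out besides db/db 1, db/db 1 and 2 left out together, and control rows kept, were added after seeing the data.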

Additional observations from a re-analysis of the deposited data

Results flagged for a closer look

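In 5 of 18 groups of 5 mice the lowest or highest mouse stood apart from the others by Dixon's gap test, which flags about 5% of groups by chance, and 4 of the 5 were db/db 1. In db/db 1 Kmo was at 10.98, which was 0.97 log2 units under the next db/db mouse, Kynu was at 9.91, which was 1.42 under, Haao at 11.70, which was 0.97 under, and Nadsyn1 at 9.92, which was 0.61 under. The remaining one was Qprt in db/m 5, at 12.07, which was 0.20 above the next db/m mouse.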

How the results depend on the processing

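Labels number the mice 1 to 5 in both groups, but deviations of same-numbered mice from their group means correlated at -0.09 to 0.01. These correlations gave no sign that the numbers pair the mice. With 5 mice a group and values centred on the group means, they cannot exclude a pairing. With all arrays 1 member passed, against 0 with the replicate block or at an adjusted p under 0.01, 3 with array weights, 2 without db/db 1 and 2, and 0 to 3 with single arrays left out. The count of all genes, 1072, was 393 with the replicate block, 2641 with array weights, 1834 without db/db 1 and 2, 279 at an adjusted p under 0.01, and 490 to 2104 with single arrays left out (490 without db/m 3, 2104 without db/db 1). Without db/db 1, 3 members passed, against 1 with the replicate block or at the stricter threshold, and 1 to 3 with a further array left out (1 without db/m 3). All genes, 2104, were then 985 with the replicate block, 846 at the stricter threshold and 1382 to 1940 with a further array left out. In limma the replicate block took away the calls of Kynu with all arrays (adjusted p = 0.0904) and of Afmid (adjusted p = 0.0967) and Haao (adjusted p = 0.149) without db/db 1, and left that of Kynu (adjusted p = 0.00905). Centring arrays on their medians gave 363 genes higher and 751 lower, against 488 and 584; for the 9 arrays it gave 910 and 1309, against 1127 and 977. Kynu was higher under every alternative run in both fits, by 1.71 to 2.40. Changes near 0 turned sign. With all arrays Kmo was at 0.0614 and Nadsyn1 at 0.0108 without db/db 1 and 2, Qprt at 0.0157 with array weights, and with single arrays left out Kmo ran from -0.261 to 0.0289 and Qprt from -0.147 to 0.0130, both highest without db/db 1. For the 9 arrays median centring gave -0.0143 for Kmo and -0.0302 for Qprt, and Nadsyn1 was at 0.00208 with quantile normalisation repeated and at 0.00875 with array weights. With a further array left out Kmo was at -0.00186 without db/db 3, Qprt at -0.0426 and -0.0123 without db/db 2 or 3, and Nadsyn1 at 0.0194 and 0.000484 without db/m 3 or 5 and at 0.0108 and 0.0131 without db/db 2 or 5. The causes were not tested.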
